A study of Mus musculus with 6 samples.

Results

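The homeostatic lymphoid chemokines, their receptors and 2 cytokines that act beside them in lymphoid tissue were followed in bulk RNA-seq libraries. The libraries were labelled as peritoneal endothelial cells (ECs), and also carried markers of many other cells. The set held 9 genes of the 22183 in the deposited table, each matched by its symbol: the chemokines Cxcl13, Ccl21a, Ccl19 and Cxcl12, the receptors Cxcr5, Ccr7 and Ackr3, and the cytokines Tnfsf11 (RANKL) and Tnfsf13b (BAFF). RNA was sequenced from 3 saline mice and 3 PD mice, 1 library per mouse. All were wild-type male mice on the C57BL/6J background, young adults by the study's methods, and differed by treatment. Saline mice had daily intraperitoneal saline, and PD mice a glucose-based peritoneal dialysis (PD) fluid by the same route, each over 6 weeks. The labels describe magnetic sorting of CD31+ cells, whereas the supplementary methods describe mesentery digested with collagenase and flow sorting of CD31+ CD45- cells, with both antibodies carrying the same fluorophore. Mesentery also holds lymphatic vessels, fat, lymph nodes and, close by, the pancreas, and CD31 is found on some leukocytes as well as on ECs.

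Homeostatic chemokines are made without inflammation by stromal cells and ECs of lymph nodes, spleen and milky spots, and place lymphocytes within them. CXCL13 draws B cells through CXCR5, and CCL19 and CCL21 draw T cells and dendritic cells through CCR7. CXCL12 retains cells through CXCR4 and is taken up by ACKR3, a scavenging receptor. In the peritoneal cavity, CXCL13 from the omentum and mesothelium is known for bringing in B1 cells. RANKL and BAFF, both of the TNF superfamily, act on lymph node stroma and on B cell survival.

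Total counts on genes ran from 21973426 to 26374292 per mouse. The libraries are named ECs after their labels, and carried markers of ECs and of many other cells. The summed level of 12 endothelial markers ranged over 1180 to 1194 CPM (counts as a share of the library, scaled by edgeR's TMM factors) under saline and 1869 to 1969 CPM under PD fluid, with 11 of the 12 higher and Pecam1, the gene of CD31, not called. The 8 B cell markers, all lower, summed to between 6544 and 6840 CPM under saline and between 3106 and 3158 CPM under PD fluid. The flow sort was described as selecting CD45- cells, with its CD31 and CD45 antibodies on the same fluorophore. Whether it removed CD45+ cells is not known from that description. Of 8 T cell markers, 4 were lower and the other 4 were not called. All 6 lymphatic endothelial, 10 macrophage, 8 fibroblast, 8 mesothelial and 8 pancreatic acinar markers were higher in PD mice, as were 6 of 8 dendritic cell markers. The pancreatic acinar sum differed most, from 1.17 to 3.50 CPM under saline to between 9515 and 10371 CPM under PD fluid. The macrophage sum was 2398 to 2548 CPM under saline and 9987 to 10786 CPM under PD fluid, the fibroblast sum 92.8 to 100.1 and 831 to 857 CPM, the mesothelial sum 14.6 to 18 and 159 to 183 CPM, and the lymphatic endothelial sum 156 to 171 and 626 to 715 CPM. Of 6 plasma cell markers, 4 were higher and 2 lower. None of these markers was at 0 in all mice of either group. In bulk RNA, fewer cells of a type and less RNA per cell cannot be told apart, which holds for each value that follows.

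**Figure D1:**
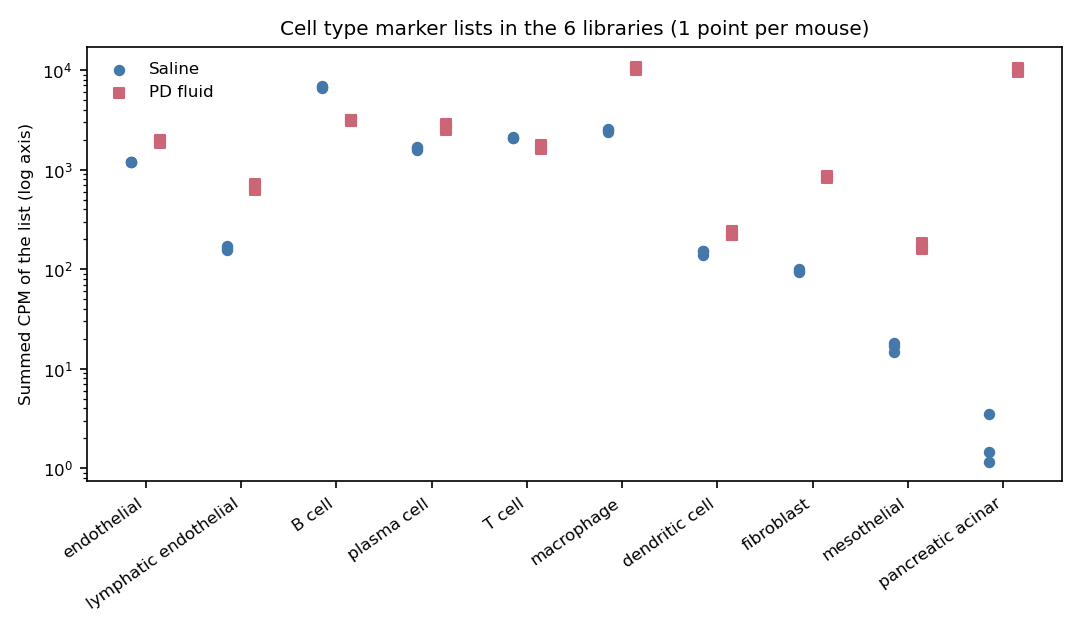
Summed CPM (log axis) of 10 cell type marker lists, 1 point per mouse, circles for the 3 saline mice and squares for the 3 PD mice. The groups do not overlap in any list, and the B cell and T cell sums are lower in PD mice while the other 8 sums are higher.

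After PD fluid (vs. saline), 8 of the 9 genes differed at an adjusted p under 0.05 (quasi-likelihood test of edgeR, Benjamini-Hochberg adjustment over the 14005 genes tested, as for every adjusted p given), as did 58.9% of all genes tested. Cxcl13, Ccl21a, Cxcl12, Ackr3 and both cytokines were higher in PD mice, and the cells that made these transcripts were not identified. The 2 lymphocyte receptors Cxcr5 and Ccr7 were lower on this scale, though not when scaled to B cell markers, and Ccl19 did not pass the test. Of all genes, 31.1% were called higher and 27.8% lower. The median log2 fold change was 1.24 over the 9 genes and 0.02 over all genes tested. The values of the groups did not overlap in 8 of the 9 genes, against 65.6% of all genes. No test of the 9 genes as a set was made.

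**Figure D2:**
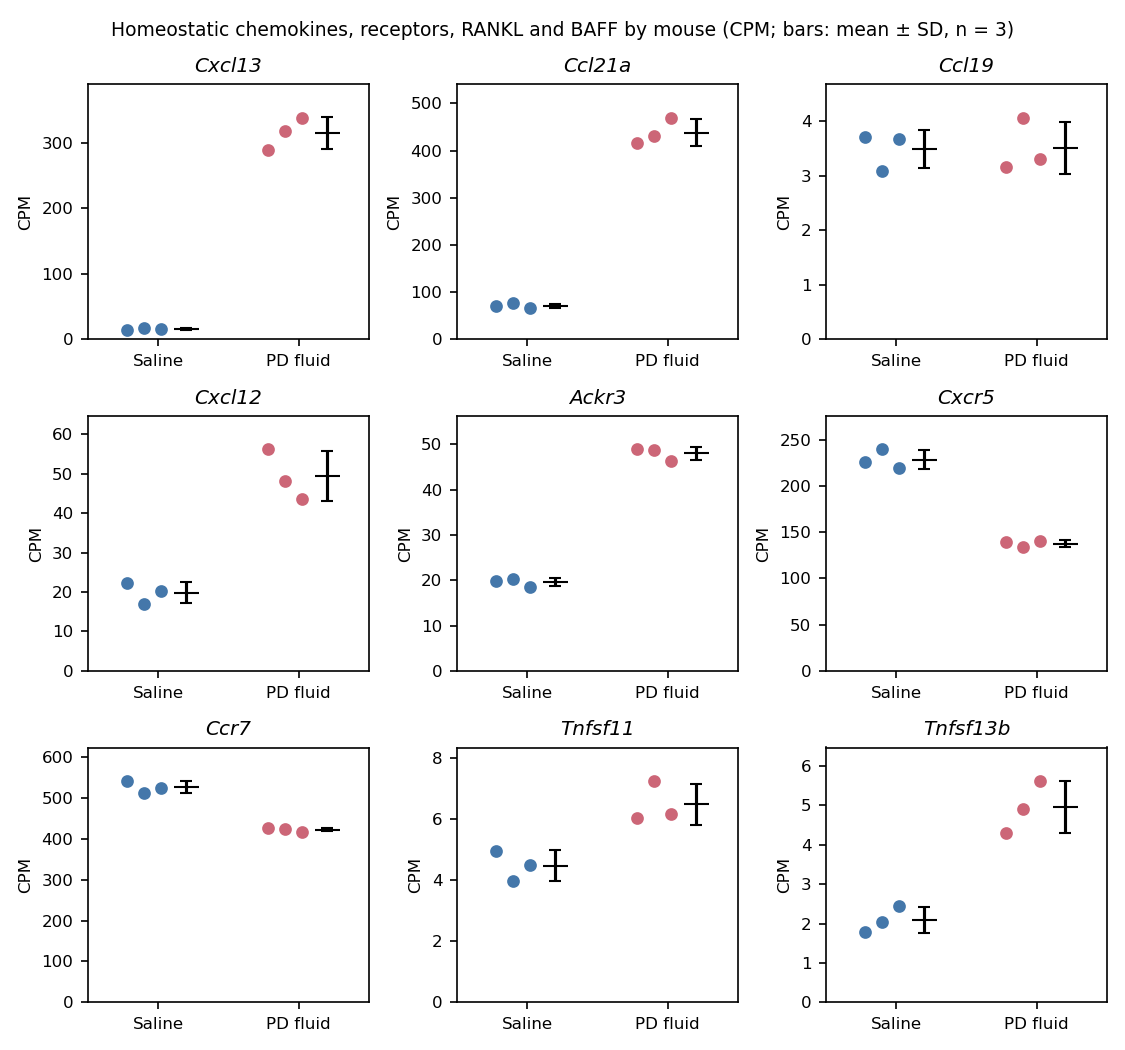
CPM of each of the 9 genes by mouse, each panel with its own linear axis from 0, with the mean and SD (n = 3 mice per group) beside the points. Cxcl13 and Ccl21a rise furthest above their saline levels, Cxcr5 and Ccr7 sit below their saline points in all 3 PD mice, and the points of Ccl19 overlap.

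Cxcl13 (ENSMUSG00000023078, on chromosome 5 of GRCm38, 95956951 to 95961068, plus strand), the ligand that guides B cells into follicles, had the largest change of the 9. It was counted 379, 364 and 376 times in the saline mice and 7835, 7585 and 7455 times in the PD mice. In CPM these were 14.8, 16.8 and 15.6 against 288, 318 and 338. Every PD mouse stood far above every saline mouse, and the mice of a group lay close together. The group means were 15.7 ± 1.00 and 315 ± 24.9 CPM (SD, n = 3 mice each), and the fitted difference was 20-fold. The log2 fold change was 4.32 ± 0.09 (SE, 95% interval 4.13 to 4.52, edgeR adjusted p = 1.96e-11). Macrophage, fibroblast and mesothelial markers rose as well, so reads of Cxcl13 were set against theirs. Per 1000 reads of the macrophage markers, Cxcl13 had 5.96 to 6.59 reads in saline mice and 28.9 to 31.3 in PD mice. Per 1000 fibroblast marker reads it had 153 to 181 and 347 to 394. Per 1000 mesothelial marker reads it had 866 to 1148 and 1816 to 1914. In all 3 ratios the PD mice were above the saline mice, by less than in CPM. The part of these cells in the rise of Cxcl13 was not tested.

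Ccl21a (ENSMUSG00000094686, chromosome 4, 42772860 to 42773993, minus strand) encodes a CCR7 ligand of lymphatic ECs and lymph node stroma. Mouse strains carry several near-identical copies of it on chromosome 4, whose reads can be assigned to the wrong copy. In the GENCODE M21 annotation of GRCm38, its coding sequence of 402 bases differed from that of each of 4 other copies by T84A and C194T, with Ccl21a's base first and positions counted from 1 at the first base of the start codon. The stretch from position 39 to 239 that holds both differences is shown for Ccl21a and for the copy at chromosome 4, 41903610 to 41904743 (plus strand), named Ccl21d in the deposited table and Gm21541 in GENCODE M21, with the differing bases in capitals.
Ccl21a: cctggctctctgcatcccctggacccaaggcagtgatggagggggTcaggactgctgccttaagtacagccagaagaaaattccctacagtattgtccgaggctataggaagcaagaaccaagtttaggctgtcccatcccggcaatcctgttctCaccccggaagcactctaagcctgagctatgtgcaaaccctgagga
Ccl21d: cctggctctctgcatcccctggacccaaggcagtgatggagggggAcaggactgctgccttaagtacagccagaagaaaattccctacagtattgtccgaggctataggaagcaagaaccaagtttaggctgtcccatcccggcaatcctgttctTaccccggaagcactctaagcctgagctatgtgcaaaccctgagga
Of the 100-base windows along the Ccl21a transcript, 50.3% were also found in another copy, so a read of that length from those windows has no single origin. The read length was not given in the sources used here.

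Ccl21a was counted 1805, 1652 and 1593 times in the saline mice and 11293, 10258 and 10367 times in the PD mice. In CPM these were 70.5, 76.2 and 66.0 against 415, 430.2 and 469.7, with no overlap between the groups. The group means were 70.9 ± 5.12 and 438 ± 28.1 CPM (SD, n = 3 mice each). The fitted difference was 6.19-fold, a log2 fold change of 2.63 ± 0.08 (SE, edgeR adjusted p = 5.25e-10). Ccl21d had 383, 429 and 430 counts in saline mice and 3128, 3628 and 3603 in PD mice. Gm13304, the copy with the least even counts, had 186, 30 and 0 in saline mice and 1176, 588 and 302 in PD mice, and Ccl21b and Gm10591 had 0 in every mouse. Ccl21a held 76.0% to 78.7% of the reads of all copies in saline mice and 70.9% to 72.6% in PD mice. With the copies summed, a setting added once the copies' counts had been seen, the log2 fold change was 2.74, a rise in the sum as well. Per 1000 reads of the lymphatic endothelial markers, which also rose, Ccl21a had 405 to 450 reads in saline mice and 630 to 664 in PD mice. Most of those marker reads in saline mice were of Mmrn1, at 109, 124 and 112 CPM of a sum of 156 to 171 CPM. Mmrn1 had a log2 fold change of 1.90, and the 6 markers ranged from 1.70 (Prox1) to 2.64 (Pdpn).

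Ccl19 (ENSMUSG00000071005, chromosome 4, 42754525 to 42756577, minus strand), the other CCR7 ligand, lies 16282 bases from Ccl21a. It had 95, 67 and 89 counts in the saline mice and 86, 97 and 73 in the PD mice. In CPM these were 3.71, 3.09 and 3.69 against 3.16, 4.07 and 3.31, and the groups overlapped. The means were 3.49 ± 0.351 and 3.51 ± 0.486 CPM (SD, n = 3 mice each). The log2 fold change of 0.00 had a standard error of 0.20 and a 95% interval from -0.44 to 0.45 (edgeR adjusted p = 0.987). The difference from Ccl21a was not tested.

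Cxcl12 (ENSMUSG00000061353, chromosome 6, 117168535 to 117181367, plus strand) is made by many stromal cells and ECs. It was at 22.4, 17.0 and 20.2 CPM in the saline mice and at 56.2, 48.3 and 43.7 CPM in the PD mice. All 3 PD mice were above the saline mice. Its log2 fold change was 1.31 ± 0.12 (SE, edgeR adjusted p = 7.03e-06). Per 1000 reads of the fibroblast markers, Cxcl12 went the other way, with 183 to 232 reads in saline mice and 51.0 to 67.7 in PD mice. Most of those marker reads were of Dcn, at 59.1, 62.8 and 58.5 CPM in saline mice (log2 fold change 3.19). The 8 markers ranged from 1.09 (Pdgfrb) to 3.91 (Lum), so this ratio rests mainly on Dcn.

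Per length, the 4 chemokines changed in their balance as well as their sum. FPKM values (the authors' levels scaled by transcript length and library size) of the 4 summed to between 102 and 111 in saline mice and between 774 and 833 in PD mice. Ccl21a held 74.7% to 77.6% of the sum in saline mice and 62.4% to 63.6% in PD mice. Cxcl13 held 12.1% to 13.3% and 33.4% to 34.9%, respectively, with no overlap. The shares of Cxcl12 were 5.74% to 7.14% and 1.77% to 2.44%, and those of Ccl19 3.68% to 4.86% and 0.520% to 0.689%.

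**Figure D3:**
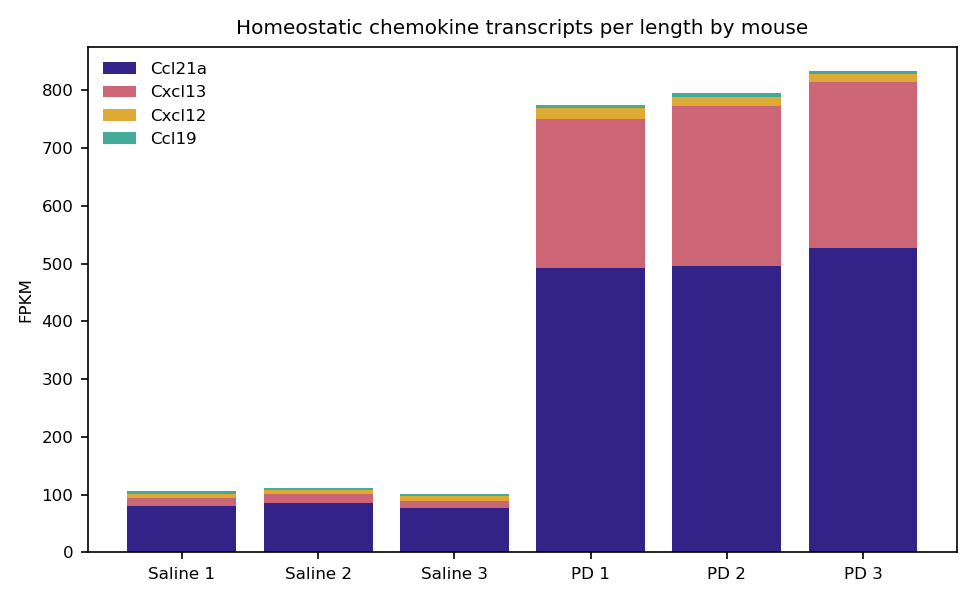
Stacked FPKM (linear axis) of the 4 homeostatic chemokines in each of the 6 mice. Ccl21a is the largest band in every mouse, Cxcl13 widens from 12.1% to 13.3% of the stack in saline mice to 33.4% to 34.9% in PD mice, and Ccl19 stays thin.

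Cxcr5 (ENSMUSG00000047880, chromosome 9, 44511787 to 44561877, minus strand), the CXCL13 receptor of B cells and follicular T cells, moved opposite to its ligand. It was at 226, 239.8 and 219 CPM in the saline mice and at 139, 134 and 140.1 CPM in the PD mice. Every PD mouse was below every saline mouse. The log2 fold change was -0.73 ± 0.06 (SE, edgeR adjusted p = 2.79e-06). The B cell markers fell as well, and per 1000 of their reads Cxcr5 had 33.0 to 35.7 reads in saline mice and 42.7 to 45.1 in PD mice, which is higher and not lower.

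Ccr7 (ENSMUSG00000037944, chromosome 11, 99144196 to 99155077, minus strand), the receptor of CCL19 and CCL21 on T cells, B cells and dendritic cells, fell less. It was at 541, 512 and 523 CPM in the saline mice and at 425, 424 and 417 CPM in the PD mice, again with no overlap. The log2 fold change was -0.32 ± 0.06 (SE, edgeR adjusted p = 0.00061). Per 1000 T cell marker reads, Ccr7 had 244 to 262 reads in saline mice and 236 to 261 in PD mice, so on that scale the groups overlapped. Per 1000 B cell marker reads it had 76.1 to 79.9 and 134 to 135. The direction of both lymphocyte receptors thus depended on what the reads were set against, and the part of the lymphocyte content in their fall was not tested.

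Ackr3 (ENSMUSG00000044337, chromosome 1, 90203980 to 90216751, plus strand), which removes CXCL12 from the surroundings of ECs and other cells, rose beside its ligand. It was at 19.8, 20.3 and 18.6 CPM in the saline mice and at 48.9, 48.7 and 46.4 CPM in the PD mice. The groups were far apart for their spread, and the log2 fold change was 1.29 ± 0.08 (SE, edgeR adjusted p = 3.39e-07). Per 1000 endothelial marker reads, Ackr3 had 15.7 to 17.2 reads in saline mice and 24.8 to 25.7 in PD mice. Pecam1, the highest of those markers, was not called.

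Tnfsf13b (ENSMUSG00000031497, chromosome 8, 10006467 to 10039072, plus strand) encodes BAFF, the survival factor of mature B cells. It was counted 46, 44 and 59 times in the saline mice and 117, 117 and 124 times in the PD mice, or 1.80, 2.03 and 2.44 against 4.30, 4.91 and 5.62 CPM. All PD mice were higher, at a log2 fold change of 1.24 ± 0.21 (SE, edgeR adjusted p = 0.00056). The median log2 fold change was 2.04 over the macrophage markers, 2.94 over the fibroblast markers and 0.69 over the dendritic cell markers. No ratio of Tnfsf13b to marker reads was made, and the part of these cells in its rise was not tested.

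Tnfsf11 (ENSMUSG00000022015, chromosome 14, 78277445 to 78308043, minus strand) encodes RANKL, which acts on lymph node stroma and osteoclast precursors. It was at 4.96, 3.97 and 4.51 CPM in the saline mice and at 6.03, 7.25 and 6.16 CPM in the PD mice, with no overlap between the groups. The log2 fold change was 0.53 ± 0.17 (SE, edgeR adjusted p = 0.0194). This call was lost without saline mouse 2 (log2 fold change 0.45, edgeR adjusted p = 0.0576) and without PD mouse 2 (0.45, edgeR adjusted p = 0.0835).

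The order of the genes by FPKM, which allows levels to be compared between genes, differed between the groups. In saline mice, Ccr7 was highest at 265 ± 8.87 FPKM (SD, n = 3 mice), followed by Cxcr5 at 90.9 ± 2.58, Ccl21a at 81.1 ± 5.16 and Cxcl13 at 13.6 ± 0.777. Cxcl12 at 7.03 ± 0.555 and Ackr3 at 6.64 ± 0.353 overlapped each other. Ccl19 at 4.67 ± 0.499, Tnfsf11 at 2.0 ± 0.234 and Tnfsf13b at 1.11 ± 0.135 came last. In PD mice, both leading chemokines stood above the lymphocyte receptors, with Ccl21a at 505 ± 19.3 FPKM (SD, n = 3 mice), Cxcl13 at 274 ± 14.5, Ccr7 at 214 ± 7.80 and Cxcr5 at 55.6 ± 2.12. Cxcl12 at 16.6 ± 2.13 and Ackr3 at 15.9 ± 0.820 again overlapped, as did Tnfsf11 at 2.91 ± 0.302 and Tnfsf13b at 2.55 ± 0.355, with Ccl19 between these pairs at 4.72 ± 0.649.

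The scale of the libraries shifts all of these changes together. Scaling to the summed counts of the 12 endothelial markers moved the median of all genes to -0.67, and scaling to the 8 B cell markers moved it to 1.11. Of the 12 endothelial markers, Pecam1 was the highest, at 458, 491 and 458 CPM of a sum of 1180 to 1194 CPM in saline mice. Pecam1 was not called (log2 fold change 0.13), and a scale without it was not tried. On the endothelial scale, Cxcl13 had a log2 fold change of 3.64, Ccl21a of 1.94, Cxcl12 of 0.62, Ackr3 of 0.61 and Tnfsf13b of 0.55, all 5 still called higher. Cxcr5 was at -1.42, Ccr7 at -1.01 and Ccl19 at -0.68, all 3 called lower, while Tnfsf11 turned to -0.16 and was not called. On the B cell scale, all 9 genes were called higher, Ccr7 by 0.78 and Cxcr5 by 0.37. Cxcl13, Ccl21a, Cxcl12, Ackr3 and Tnfsf13b were therefore higher in PD mice on each of the 4 scales tried, whereas the direction of Cxcr5, Ccr7, Tnfsf11 and Ccl19 followed the scale. None of these scales used the fibroblast, macrophage or mesothelial markers, which rose more than the endothelial markers. Against fibroblast markers, whose reads were mostly of Dcn, Cxcl12 was lower in PD mice, at 51.0 to 67.7 reads per 1000 and 183 to 232 in saline mice.

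**Figure D4:**
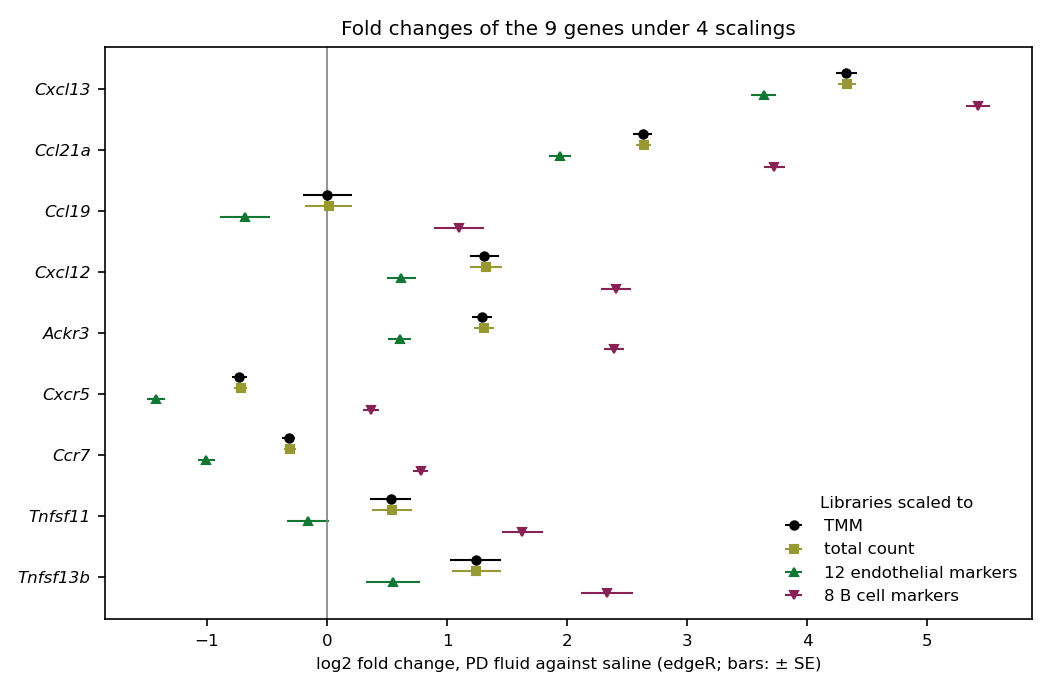
Log2 fold changes of the 9 genes, PD fluid against saline, with bars for ± 1 standard error (n = 3 mice per group), under TMM, total count, endothelial marker and B cell marker scaling. Cxcl13 stays the largest on every scale, from 3.64 to 5.42, Cxcr5 and Ccr7 cross 0 on the B cell scale, and Tnfsf11 and Ccl19 lie below 0 on the endothelial scale.

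The partners of these genes were described in 4 lists, in which 25 of 31 genes passed the test, 16 higher and 9 lower in PD mice (58.9% of all genes passed). These directions hold on the TMM scale, since 9 were higher and 13 lower on the endothelial scale, and 30 higher and 0 lower on the B cell scale. Among 6 chemokine receptors and scavengers, 5 were higher and 1 was not called (median log2 fold change 0.93). Ccrl2, which binds chemerin and presents it on ECs, rose most, from 29.2, 31.4 and 31.7 CPM to 123, 125 and 123 CPM (log2 fold change 2.0). Ackr1, the chemokine-transporting receptor of venules, rose by 1.12, and Gpr182, an endothelial scavenger of chemokines, by 0.95. Ackr2, a scavenger of inflammatory chemokines on lymphatic ECs, rose by 0.91, and Ackr4, which removes CCL19, CCL21 and other ligands, by 0.62. Beside these, the median log2 fold change was 0.96 over the 12 endothelial markers, 2.2 over the 6 lymphatic endothelial markers and 2.04 over the 10 macrophage markers. The part of the endothelial, macrophage or other cell content in these rises, that of Ccrl2 included, was not tested. Cxcr4, the signalling receptor of CXCL12, averaged 21.9 ± 1.57 CPM under saline and 22.8 ± 0.294 CPM under PD fluid (SD, n = 3 each), with overlap (log2 fold change 0.06, edgeR adjusted p = 0.613). For the 2 receptors of CXCL12, the 95% intervals were 1.11 to 1.48 for Ackr3 and -0.15 to 0.27 for Cxcr4. The difference between them was not tested. Endothelial markers rose and B cell markers fell in the same libraries, and the part of cell content in this contrast was not tested either.

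Among 6 receptors and relatives of RANKL and BAFF, 3 were higher, 2 lower and 1 not called (median log2 fold change 0.76). The BAFF receptors of B cells fell, Tnfrsf13c (BAFF-R) from 324 ± 17.8 to 169 ± 4.57 CPM and Tnfrsf13b (TACI) from 310.4 ± 10.2 to 148 ± 2.55 CPM (SD, n = 3 mice each). Their log2 fold changes were -0.94 and -1.07, while that of the third receptor, Tnfrsf17 (BCMA) of plasma cells, was 0.26 with an edgeR adjusted p of 0.45. Per 1000 B cell marker reads, Tnfrsf13c had 46.6 to 50.6 reads in saline mice and 52.6 to 56 in PD mice, so it fell in CPM and not against those markers. Tnfsf13 (APRIL), the relative of BAFF, rose by 1.72. For RANKL, both its receptor Tnfrsf11a (RANK), by 1.27, and its decoy Tnfrsf11b (osteoprotegerin), by 1.70, rose at low levels of at most 5.49 CPM in any mouse.

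Lymphotoxin, a signal from lymphocytes, acts through the lymphotoxin beta receptor and non-canonical NF-κB on stromal cells and is known to drive the homeostatic chemokines. Of the 13 genes of this list, 4 were higher, 6 lower and 3 not called (median log2 fold change -0.01). The ligands fell, Ltb from 1101, 1022 and 1083 CPM to 605, 632 and 705 CPM (log2 fold change -0.72) and Lta by 0.69 on the log2 scale. The receptor Ltbr rose from 6.52, 6.36 and 7.74 CPM to 19.2, 17.0 and 15.3 CPM (log2 fold change 1.32), as did Tnfsf14 (LIGHT), another ligand of it, by 0.85. The transcription factor genes Nfkb2 and Relb rose by 0.68 and 0.61. Map3k14, which encodes the kinase NIK, had a log2 fold change of 0.09, and Traf3, which encodes an adaptor that holds NIK low, of -0.01, neither called. Chuk, Birc2, Birc3 and Traf2, of the same pathway, had log2 fold changes of -0.46, -0.36, -0.28 and -0.22, all called lower. The lowered ligands are lymphocyte products, and B cell markers were lower in the same mice, a relation that was not tested. Beside the rises, the median log2 fold change was 0.96 over the endothelial, 2.04 over the macrophage and 2.94 over the fibroblast markers. Endothelial marker scaling moved the median of all genes to -0.67, close in size to the rises of Nfkb2 and Relb. The part of cell content in the rises of Ltbr, Tnfsf14, Nfkb2 and Relb was not tested.

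The list of oxysterol and IL-7 genes had 4 higher, 1 lower and 1 not called (median log2 fold change 1.06). Ch25h and Cyp7b1 make the oxysterol that positions B cells, and Hsd3b7 degrades it. Ch25h rose by 1.61 and Hsd3b7 by 1.25. Cyp7b1 rose by 0.88 ± 0.34 (SE, edgeR adjusted p = 0.0425) at a low level. It had 17, 16 and 22 counts in saline mice and 47, 32 and 26 in PD mice. Gpr183 (EBI2), the receptor for this oxysterol on lymphocytes, fell from 484 ± 41.3 to 305 ± 11.3 CPM (SD, n = 3 mice each), a log2 fold change of -0.67. Il7, a lymphocyte survival factor of stromal cells and lymphatic ECs, rose from 2.73, 3.23 and 3.11 CPM to 9.53, 11.2 and 9.97 CPM (log2 fold change 1.76). Its receptor gene Il7r was at 204 ± 18 and 214 ± 10.2 CPM (SD, n = 3 mice each) and was not called.

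**Figure D5:**
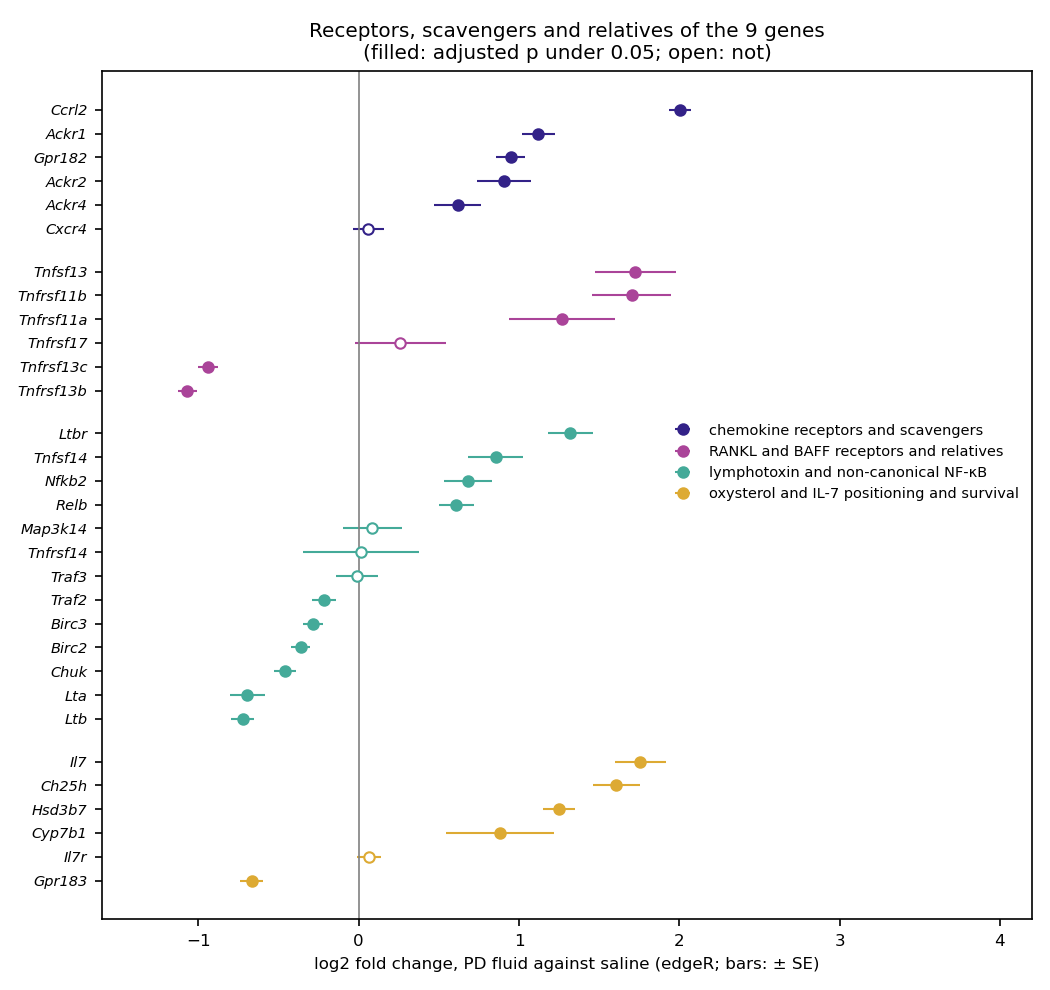
Log2 fold changes, PD fluid against saline, of 31 partner genes in 4 lists, with bars for ± 1 standard error (n = 3 mice per group), filled points for adjusted p under 0.05 and open points for the rest. In all 4 lists some genes are higher, and the 9 lower genes are in the RANKL and BAFF, lymphotoxin and oxysterol lists; on the B cell marker scale none is lower.

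The genes with the most similar profiles were found by the distance between log2(CPM + 1) values over the 6 libraries, each centred on its mean. Since the groups differ so much, this distance mostly ranks genes by the size of the difference between them. For Cxcl13 the nearest were Camp, Saa3 and Reg3g, at 0.18, 0.23 and 0.28. For Ccl21a they were Ccl6 at 0.07, Upk1b at 0.16 and C5ar1 at 0.16, and for Cxcl12 they were Eng at 0.11, Ptprm at 0.15 and Vip at 0.16. Ackr3 was nearest to Hsp90ab1, Atf3 and Afap1l1, Cxcr5 to Smchd1, Cmah and Oard1, and Ccr7 to Srpk2, Diablo and Eif2d, all at no more than 0.08. Tnfsf11 was nearest to Gfi1b, Prdx4 and Alox12, Tnfsf13b to Pakap, Mcpt8 and Zfyve21, and Ccl19 to Ccdc61, Rbsn and Hmg20b.

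Promoter sequences of RefSeq on GRCm38.p6, from 250 bases before to 50 after a gene's start, were held for 7 of the 9 genes in 8 windows, with none for Ccr7 and Cxcr5. They were searched on both strands for 1 motif, a 10-base form of the NF-κB consensus. It was in 0 of the 8 windows and in 482 of all 32851 promoters of this length (1.47%). This says only that these letters are not in these windows.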

How the data were processed

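RNA-seq libraries labelled as peritoneal ECs, from 3 saline and 3 PD mice were grouped by their labels. The authors deposited raw read counts and FPKM values per gene and mouse. The submitters' processing notes name fastp 0.18.0, Bowtie2 2.2.8, HISAT2, StringTie and RSEM, and the genome build and the counter are not given in the sources used here. Positions are those of GRCm38 (GENCODE M21), matched by identifier. The named library kit does not mark strand, so antisense reads cannot be told apart. The authors' group means, fold change, p-value and FDR columns were not used. The study names limma for differential expression. Here counts were filtered (filterByExpr), scaled by TMM and tested with edgeR 4.0.16 in R 4.3.3 by the quasi-likelihood test, with no covariate, Benjamini-Hochberg adjustment over 14005 genes and a threshold of 0.05. Standard errors come from the F statistic. FPKM was used for levels between genes only. Counts were also simulated for 14005 genes, with 200 of them changed and the same dispersion for every gene. Of the changed genes tested, 90 of 95 changed by 1 on the log2 scale and 101 of 101 changed by 2 were recovered, with 12 false calls. In the data 58.9% of genes were called, and the simulation does not show how the test behaves under so broad a shift. P-values set the difference between groups against the spread between mice, of which there are 3 per group. They do not tell a change within cells from a difference in the cells collected.

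The genes named are the 9 genes, the 31 genes of 4 partner lists and, for each of the 9, the 3 nearest profiles. These genes and lists were chosen with earlier results of these data known. The 10 ratios to marker reads and the promoter motif were set after the files were opened, and the ratios carry no test. Alternatives tried were a replicate block, no filter on low counts, DESeq2 1.42.0, limma-voom (limma 3.58.1), total count scaling, 2 marker scalings, each mouse left out and, added after seeing the data, the Ccl21 copies summed.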

Additional observations from a re-analysis of the deposited data

How the results depend on the processing

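Outside the 2 marker scalings, all 9 genes except Tnfsf11 and Ccl19 kept their direction and their side of the threshold under every alternative tried. Tnfsf11 lost its call without saline mouse 2 and without PD mouse 2, so with each mouse left out between 7 and 8 of the 9 genes were called. Ccl19, not called in any of these, was at -0.0083 by DESeq2, at -0.0073 by limma-voom and between -0.11 and 0.076 with each mouse left out. Under endothelial marker scaling, Ccl19 was at -0.68 (edgeR adjusted p = 0.0092), Tnfsf11 at -0.16 (edgeR adjusted p = 0.433), 1710 of all genes were higher and 8927 lower, and 9 partner genes were higher. Under B cell marker scaling, Ccr7 was at 0.78, Cxcr5 at 0.37 and Ccl19 at 1.1, with 0 of the 9 genes lower, 13203 of all genes called (13160 higher, 43 lower), and 30 partner genes higher and 0 lower. These shifts follow from the scaling itself, which moves all genes together. With each mouse left out, 6996 to 8018 of all genes and 23 to 25 partner genes were called. Same-numbered mice had correlations of 0.19, 0.07 and -0.27 between their deviations, so the replicate numbers were not taken as pairs. With the replicate block, 8 of the 9 genes and 7909 of all genes were called, and Tnfsf11 was at 0.53. Ccl19, Tnfsf11 and Tnfsf13b, with under 200 counts in every mouse, have the widest errors.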
